A study of Mus musculus with 4 samples.

Results

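Pericentral-type sinusoidal endothelial cells are the cells that line the liver sinusoid next to the central vein. Among the nonparenchymal cells of 4 mouse livers, 463 of 27091 sequenced cells met the rule for this type. There were 223 in corn oil mouse 1, 191 in corn oil mouse 2, 32 in CCl4 mouse 1 and 17 in CCl4 mouse 2. The rule first kept cells with at least 200 detected genes and at most 25% mitochondrial molecules, which left 25861. It then kept cells in which 6 endothelial genes (Kdr, Ptprb, Stab2, Oit3, Ehd3 and Egfl7) held at least 0.3% of the unique molecular identifiers (UMIs, each standing for 1 captured RNA molecule). To set aside larger veins, cells with 4 or more UMIs of Vwf or 2 or more of Wnt9b and Rspo3 together were left out. So were cells with more than 2 of Clec4f (Kupffer cells), 3 of Dcn (stellate cells and fibroblasts) or 2 of Laptm5 (leukocytes). This gave 13913 sinusoidal endothelial cells, 4471, 4681, 2483 and 2278 in the same order of mice. A pericentral-type cell had at least 4 UMIs in all of Wnt2, Kit, Cdh13 and Thbd and at most 1 UMI in all of Efnb2, Dll4, Ltbp4, Ntn4, Msr1 and Adgrg6, which mark the portal end. The mirrored rule, with at least 4 UMIs of the 6 portal-end genes and at most 1 of the 4 pericentral genes, gave 3876 periportal-type cells, 957, 1481, 659 and 779 per mouse, for comparison.

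The sinusoidal endothelium is a sieve: its cells carry open pores, lack a continuous basement membrane, and clear waste from blood through scavenger receptors such as stabilins and the mannose receptor. Cells near the central vein secrete Wnt2, which maintains the gene programme of the neighbouring hepatocytes, and carry more of the receptor Kit. Those are also the hepatocytes that activate carbon tetrachloride (CCl4) into its toxic form. In chronic injury sinusoidal cells can close their pores and lay down a basement membrane, a change called capillarisation.

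The 2 groups were wild-type male mice of 8 to 10 weeks, whose strain the labels do not state. The CCl4 mice received CCl4 and corn oil mixed 1 to 9, the control mice corn oil alone, each at 10 µl per g of body weight into the peritoneum, 2 times a week for 5 weeks, and livers were taken 48 hours after the last injection. Pronase and collagenase were used to dissociate the organ, a spin at 50 × g removed hepatocytes, and about 10000 viable cells per mouse were loaded for whole-transcriptome sequencing on BD Rhapsody, a microwell platform. Each mouse is 1 library and 1 replicate, so every test below rests on 2 mice a group. The edgeR p-values weigh each gene's spread between mice together with a spread shared over genes.

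The libraries held 45408857 to 55529871 UMIs, and the median cell 4493 to 6861. The members' summed UMIs were 1010312 and 710371 in the corn oil mice but only 195749 and 105716 in the CCl4 mice. The per-cell depth ran the other way, with a median of 4310, 3630, 5858 and 6533 UMIs. The deposited table of CCl4 mouse 1 came from a processing run of its own, so that run and that mouse cannot be told apart. Any pair of libraries shared 48 to 74 cell indices, out of 5948 to 7663 cells.

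The markers of the label are given first as a description. The rule reads Stab2 and the 4 zone markers, so finding them in members does not check the label. Stab2, a scavenger receptor that defines sinusoidal endothelium and is read by the endothelial step of the rule, had a UMI in 99.6%, 99.0%, 100% and 100% of members. Of the 4 zone markers, members carried Wnt2 in 70.4%, 70.2%, 71.9% and 47.1% of cells and Kit in 83.9%, 91.1%, 71.9% and 94.1%. Cdh13 was found in 76.2%, 77.0%, 46.9% and 58.8%, less often in both CCl4 mice, and Thbd in 87.9%, 74.9%, 100% and 88.2%. Genes that mark the same zone but were not read by the rule were mostly higher in members than in periportal-type cells of the same library. The transcription factor gene Lhx6 stood at 65.3, 64.8, 107 and 114 unscaled CPM (counts of UMIs relative to a fixed total per library) in members against 0.655, 0.977, 2.27 and 1.61 in periportal-type cells. Fabp4, Selp, Rab3b, Ptgs1, Gatm, Plpp1, Cd9 and Lgals1 were also higher in members in all 4 libraries. Plxnc1 was higher in both corn oil libraries but lower in both CCl4 libraries (930 and 1003 against 1129 and 1239). Dkk3 was lower in CCl4 mouse 1 (15.3 against 29.3), and Rspo1 had at most 1 UMI in the members of any library. These values belong to cells chosen by the rule and carry no test.

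The CCl4 members held less RNA of the rule's endothelial genes. Those 6 endothelial genes held a median of 2.10% and 2.40% of UMIs in corn oil members and 0.855% and 0.691% in CCl4 members, while all sinusoidal cells stood at 2.08%, 2.37%, 1.32% and 1.32%, and periportal-type cells at 2.04%, 2.31%, 1.36% and 1.37%. Among the 6 genes, Ehd3, a membrane-trafficking gene, stood at 5260 and 5904 unscaled CPM in corn oil members and 960 and 530 in CCl4 members, whereas Egfl7, a secreted vascular factor, stood at 697, 994, 771 and 766. Ehd3 was also lower in both CCl4 mice in periportal-type cells (5549, 6141, 2238 and 2020 unscaled CPM) and in all sinusoidal cells (5400, 6065, 2030 and 1913). Since the rule read these genes they are given without a test. The share, the counts of called genes and the genes named from the lists were also computed with only those members in which the 6 genes held at least 1% of UMIs. That alternative, chosen after seeing the data, kept 219, 191, 13 and 4 members with 993950, 710371, 73845 and 17804 UMIs, and it is called the 1% endothelial cut. It was not applied to the markers left out of the gate or to all sinusoidal cells. Whether the members of the 2 groups are the same kind of cell was not tested, so each change within members compares the cells that the rule chose.

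Pericentral-type cells made up a smaller share of the sinusoidal cells in both CCl4 mice. The share was 4.99% and 4.08% in the corn oil mice (4.53% ± 0.642, SD, n = 2) and 1.29% and 0.746% in the CCl4 mice (1.02% ± 0.384, SD, n = 2). The groups did not overlap, and the exact two-sided permutation test gave p = 0.333, the smallest value that 6 splits of 4 mice allow. The rule counts UMIs, and the CCl4 cells were deeper. When every cell was thinned to 3000 UMIs and shallower cells were left out (432, 1146, 13 and 21), the shares became 9.36%, 5.14%, 5.87% and 3.87%. These groups overlapped (7.25% ± 2.98 against 4.87% ± 1.41, SD, n = 2 each; exact permutation p = 0.667). The share of periportal-type cells overlapped between the groups as sequenced, at 26.5% ± 7.24 and 30.4% ± 5.41. After thinning it was 29.4% and 39.0% in the corn oil mice and 40.2% and 47.8% in the CCl4 mice. Those groups did not overlap (34.2% ± 6.79 against 44.0% ± 5.34, SD, n = 2 each; exact permutation p = 0.333). The 2 parts of the zone rule moved unequally. Cells with at least 4 marker UMIs, whatever their portal-end UMIs, made up 60.7%, 44.0%, 53.6% and 43.2% of sinusoidal cells, and the groups overlapped. Cells with at most 1 portal-end UMI, whatever their marker UMIs, made up 5.59%, 5.53%, 1.53% and 1.23%, without overlap. Near the marker limit there were 12, 21, 1 and 1 members with 4 marker UMIs and 10, 20, 1 and 3 cells with 3. Near the portal-end limit 148, 137, 20 and 8 members had 1 UMI, and 190, 142, 31 and 36 cells just outside had 2, more than the members inside in all 4 mice.

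**Figure D1:**
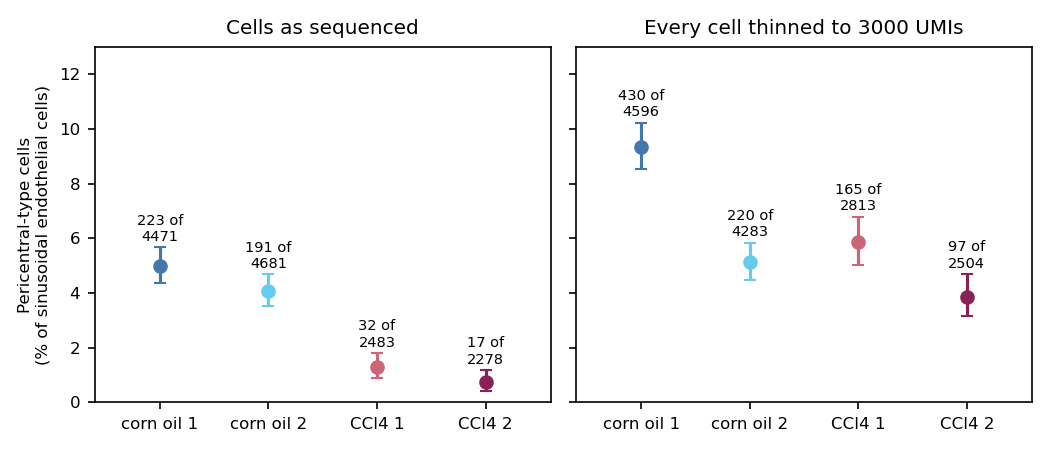
Pericentral-type cells as a percentage of sinusoidal endothelial cells in each mouse, with exact 95% binomial intervals that cover counting error only; the left panel uses cells as sequenced and the right panel cells thinned to 3000 UMIs. The CCl4 mice lie below both corn oil mice on the left, at 1.29% and 0.746%, and overlap with them on the right.

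The markers themselves changed unequally. Because a gene cannot be tested in cells it helped to choose, each of the 4 markers was read in cells gated on the other 3. These gates counted UMIs as sequenced and were not repeated after thinning. Wnt2, the secreted ligand, stood at 355 and 401 CPM after scaling by edgeR's TMM factors, as all CPM from here unless called unscaled, in corn oil cells and 180 and 212 in CCl4 cells, a log2 change of -0.97 (SE 0.257; edgeR, Benjamini-Hochberg adjusted p = 0.0243). The call rested on corn oil mouse 2 and CCl4 mouse 1: without them the change was -0.90 and -0.87 with adjusted p = 0.107 and 0.167. Cdh13, an adhesion molecule of the cadherin family, stood at 509 and 515 CPM against 161 and 152 and fell by 1.70 (adjusted p = 9.80e-04). In both genes the CCl4 values lay below both corn oil values.

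Thbd, the thrombin receptor that starts the anticoagulant protein C pathway, went the other way in cells gated on the other 3 markers. Over all sinusoidal cells, with no zone gate, Thbd was not called (0.21, edgeR adjusted p = 0.755). It stood at 825 and 511 CPM in corn oil cells gated on the other 3 markers and at 2012 and 1587 in CCl4 cells, a rise of 1.43 (adjusted p = 0.00363), which was 1.07 with adjusted p = 0.0693 without corn oil mouse 2. Kit, the receptor for stem cell factor, stood at 597 and 759 against 454 and 478 CPM and did not pass the test (-0.54, adjusted p = 0.181). Of the members' UMIs in the 4 markers, Thbd supplied 36.1% and 25.5% in the corn oil mice and 71.8% and 64.5% in the CCl4 mice, given as a description. Gates that include Thbd may therefore choose cells by different genes in the 2 groups. The gate on the other 3 reads Wnt2 and Cdh13, which fell, so it may also choose unlike cells. Neither was tested directly, but calls within members from a gate without Thbd are given below.

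Summed over all sinusoidal endothelial cells, with no zone gate, Wnt2 stood at 185 and 152 CPM in the corn oil mice and 73.3 and 62.5 in the CCl4 mice, and fell by 1.31 (SE 0.159; edgeR adjusted p = 0.00964). Cdh13 fell by 1.99 (adjusted p = 0.0329), from 190 and 157 to 61.2 and 26.3 CPM, but without corn oil mouse 1 or mouse 2 its adjusted p was 0.0865 or 0.0797. Neither Kit (-0.19, adjusted p = 0.475) nor Thbd (0.21, adjusted p = 0.755) passed. Of the 6 portal-end genes, Ltbp4, which binds latent TGF-beta, fell by 1.18 (adjusted p = 0.00896), and the other 5 did not pass. In sums such as these, fewer cells of a type and less RNA per cell cannot be told apart. In this comparison 5.19% of 12416 tested genes were called, 2.7% higher and 2.49% lower.

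**Figure D2:**
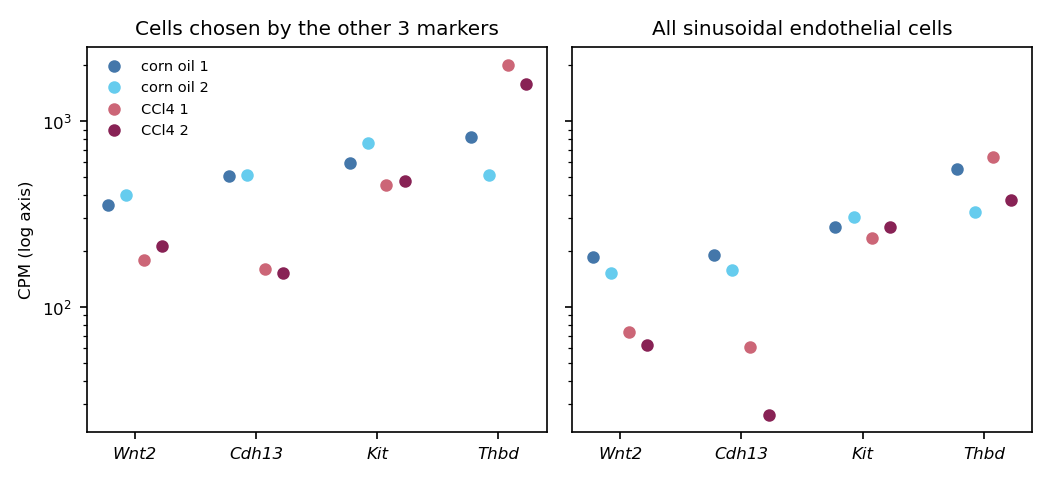
CPM of the 4 zone markers on a log axis, 1 point per mouse; on the left in cells chosen by the other 3 markers, on the right in all sinusoidal endothelial cells. Wnt2 and Cdh13 are lower in both CCl4 mice in both panels, while Thbd is higher in both CCl4 mice on the left only.

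Within the members, CCl4 and corn oil were then compared over all genes that the rule did not read. Of 6207 genes tested with edgeR's quasi-likelihood test, 403 (6.49%) were called at an adjusted p under 0.05, 224 higher (3.61%) and 179 lower (2.88%) in CCl4 cells, and the median log2 change over all tested genes was -0.02. In 3222 genes (51.9%) the 2 groups did not overlap. Without CCl4 mouse 1 there were 118 higher and 122 lower, and without corn oil mouse 2 132 and 175. With the 1% endothelial cut 38 were higher and 44 lower of 5769 tested, and 71 of the 403 were called again. Of 106 called genes on the lists or among the largest changes, that cut left 30 called and 58 not called (57 with the same sign), and 18 were too low to be tested, among them Adamts4, Slc1a5, Myc, Sele, Plaur and Tubb3. A gate without Thbd gave 128 genes higher and 112 lower of 5392 tested, and 219 of the 403 were called again. Of the 106 genes, 71 were called there and 26 kept their sign but were not called. Among the 26 were Flt1, Eng, Igfbp7, Nos3, Lamc1, Cav2, Lrp6, Nkd1, Egr1, Fosb, Hsp90aa1, Fabp4, Rab3b, Gja4, Gstm1, Cxcl9 and Stmn1. Gating the cells after thinning gave 430, 220, 165 and 97 members, whose UMIs were summed at full depth. Of 8567 genes tested there, 494 were higher and 436 lower, and 349 of the 403 were called again. Changes and calls given below as after thinning are from that fit. Percentages of cells with a UMI after thinning instead use thinned counts of the members chosen as sequenced, where these had at least 3000 UMIs.

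The largest increases included 12 genes chosen by a fixed rule of size, shown in the plot of the largest changes. The steepest with a measurable level in corn oil cells was Ednrb, the endothelin receptor type B, which takes up endothelin and drives nitric oxide release in endothelium (chromosome 14, 103814625 to 103844402, minus strand, GRCm38). Its CPM was 18.4 and 4.37 in corn oil members and 1075 and 1707 in CCl4 members, a log2 change of 6.77 (SE 0.408; edgeR adjusted p = 4.19e-06). Both CCl4 mice stood far above both corn oil mice. The change was 5.46 with the 1% endothelial cut (adjusted p = 2.67e-14) and 6.90 in the cells gated after thinning, at full depth.

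Ednrb was spread over the CCl4 members rather than held by 1 cell. A UMI was seen in 12 of 223, 3 of 191, 22 of 32 and 17 of 17 members, or 5.38%, 1.57%, 68.8% and 100%, and in 4.93%, 0.725%, 65.6% and 100% after thinning to 3000 UMIs. Kupffer cells of the same libraries, read as a background and with a median of 9162 to 14720 UMIs, had one in 11.6%, 13.2%, 16.7% and 9.47% of cells. The corn oil members were below that background and the CCl4 members above it. In CCl4 mouse 1 it was seen in 15 of 23 members with Wnt2 and 7 of 9 without.

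The other increases were of lower abundance. Serpina3n, a secreted protease inhibitor, had 0 and 1 UMIs in corn oil members and 49 and 15 in CCl4 members, a ratio of 365 with a counting interval of 63.3 to 14651. Cd63, a tetraspanin of endosomes and secretory granules that carries P-selectin in endothelium, stood at 6.12, 14.6, 283 and 234 CPM and rose by 4.72 (adjusted p = 5.84e-05). Adamts4, a matrix-cleaving protease, stood at 5.10, 0, 242 and 198 CPM, and Slc1a5, a glutamine transporter, at 2.04, 1.46, 101 and 189. All 5 genes named so far in these paragraphs were called without each mouse in turn.

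Some of the 12 rested on few cells or few mice. Ch25h, which makes 25-hydroxycholesterol, had 56.8% of its UMIs in CCl4 mouse 1 in a single cell, and Ccl2, the monocyte chemokine, had 84.1% there in a single cell. Tnfrsf9, a co-stimulatory receptor, had no UMI in corn oil members and 17 and 4 in CCl4 members, at least 40.0-fold higher against a floor of 3 counts over the corn oil group. It was seen in 6 and 1 cells, and without corn oil mouse 1 or mouse 2 its adjusted p was 0.0981 or 0.181. Cfap69, a cilium-associated gene, was lost in the same way (adjusted p = 0.0965 or 0.116), and Steap2, a metalloreductase, without corn oil mouse 2 (adjusted p = 0.0523). Tubb3, a beta tubulin, stood at 2.04, 0, 106 and 98.8 CPM and Cd34 is described with its list.

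Among the 12 largest decreases, Hlf, a clock-output transcription factor, had 134 and 138 UMIs in corn oil members and none in CCl4 members (adjusted p = 5.89e-04), at least 15.9-fold lower against the same floor. It was seen in 31.4% and 40.3% of corn oil members, and in 25.6% and 34.1% after thinning. The other 11 (Depp1, Top2a, Ecm2, Ldhb, Cenpf, Loxl3, Prc1, Ccna2, Thrsp, Slco2b1 and Zfp512) had 48 to 75 UMIs over the corn oil group and none in the CCl4 group, which allows only bounds of at least 2.80-fold to at least 4.38-fold lower. Without CCl4 mouse 1 none of these 11 was called, with adjusted p from 0.0762 for Top2a to 0.184 for Zfp512, and without CCl4 mouse 2 Ccna2, Slco2b1, Thrsp and Zfp512 were lost (0.0675, 0.0658, 0.0635 and 0.0827). Hlf was called without each mouse and with the 1% endothelial cut, where none of the other 11 was. These bounds hold for the members as sequenced only: gating after thinning, Zfp512 (-0.37, adjusted p = 0.550), Loxl3 (-1.42, 0.0536) and Slco2b1 (-1.55, 0.0874) were not called, and Ecm2 (-1.59, 0.0258) was.

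**Figure D3:**
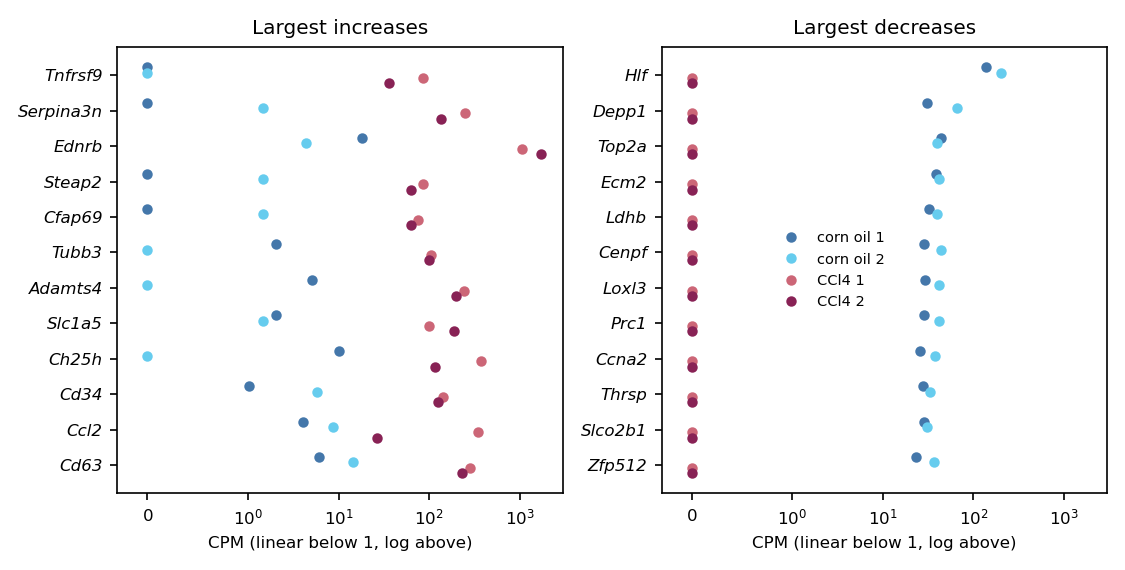
CPM per mouse in pericentral-type cells for the 12 largest increases and the 12 largest decreases, on an axis that is linear below 1 and logarithmic above it. Ednrb reaches 1075 and 1707 CPM in the CCl4 mice, and all 12 decreasing genes are at 0 in both CCl4 mice.

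Scavenger and identity genes of sinusoidal endothelium came first among the lists. Of 18 tested, 8 fell and 2 rose, with a median log2 change of -0.62 beside -0.02 over all genes. Over all tested genes 2.88% fell and 3.61% rose, and these shares stand beside the counts of every list below. Mrc1, the mannose receptor, stood at 2280 and 2363 CPM in corn oil members and 737 and 754 in CCl4 members and fell by 1.64 (SE 0.191; adjusted p = 3.42e-04). Clec4g, the C-type lectin LSECtin, stood at 3202, 3268, 1227 and 826 CPM and fell by 1.64, and Fcgr2b, the receptor that clears small immune complexes, stood at 5067, 5599, 2302 and 1967 and fell by 1.32. In all 3 genes both CCl4 mice lay far below both corn oil mice.

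Dnase1l3, a secreted DNase, fell by 1.92, Cyp4b1, a monooxygenase, by 1.61, F8, coagulation factor VIII, by 1.30, Stab1, the sister receptor of Stab2, by 1.06, and Rnase4, a secreted ribonuclease, by 3.91. The 2 that rose were Lyve1, the hyaluronan receptor, from 682 and 749 to 3301 and 3305 CPM (2.21, adjusted p = 5.84e-05), and Cd36, a fatty acid and thrombospondin receptor (1.52). All 10 calls held without each mouse in turn. Under the 1% endothelial cut 2 rose and 5 fell of 18, beside 38 and 44 of 5769 over all tested genes. Mrc1, Clec4g, Dnase1l3, Cyp4b1 and Rnase4 stayed called, while Fcgr2b (-1.05, edgeR adjusted p = 0.0651), F8 (-1.10, 0.0524) and Stab1 (-0.94, 0.121) did not. After thinning 2 rose and 11 fell, beside 494 and 436 of 8567 over all tested genes.

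Of 27 tested genes of capillary endothelium and basement membrane, 6 rose and 2 fell, with a median of 0.35. Cd34, a sialomucin of continuous capillaries, stood at 1.02 and 5.83 CPM in corn oil members and 141 and 126 in CCl4 members (5.36, SE 0.568, adjusted p = 2.09e-04), and had a UMI in 0.448%, 2.09%, 40.6% and 35.3% of members, against 4.92% to 6.80% of Kupffer cells. After thinning the shares were 0%, 2.17%, 28.1% and 17.6%. Ly6a, the membrane protein Sca-1, stood at 180, 189, 848 and 1266 CPM (2.50, adjusted p = 9.00e-05). The groups of both genes were far apart.

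The collagen IV chains, the core of basement membrane, rose together: Col4a1 from 925 and 596 to 2100 and 2515 CPM (1.60, adjusted p = 0.00145) and Col4a2 by 1.82. Lamc1, a laminin chain, rose by 1.35 and Vim, vimentin, by 0.88, but Lamc1 was lost without CCl4 mouse 2 (adjusted p = 0.159), and Vim without corn oil mouse 2 (0.131) or CCl4 mouse 2 (0.0827). The 2 that fell belong to caveolae: Cavin2 by 1.34, and Cav2 by 1.64, which was lost without CCl4 mouse 1 (0.252). Of these, under the 1% endothelial cut, Ly6a (1.44, adjusted p = 0.00635), Col4a1 and Col4a2 were called, Lamc1 (0.60, 0.848), Vim (0.63, 0.377), Cavin2 (-0.91, 0.130) and Cav2 (-1.06, 0.504) were not, and Cd34 had 8 and 0 UMIs in the 13 and 4 CCl4 cells and was too low to be tested. After thinning 12 of 31 rose and 3 fell, beside 494 and 436 of 8567 over all tested genes. Cd34 stood at 4.63 there (edgeR adjusted p = 1.95e-04).

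Angiocrine factors, the signals that endothelium sends to hepatocytes and stellate cells, moved both ways: 4 of 24 rose and 6 fell, with a median of 0.02. Hgf, the hepatocyte growth factor, stood at 64.2, 56.8, 298 and 494 CPM and rose by 2.65 (adjusted p = 2.44e-04), and Inhbb, an activin subunit, at 161, 67.0, 636 and 476 and rose by 2.27. Bmp2, which controls iron sensing through hepatocyte hepcidin, stood at 3076, 4022, 1151 and 1572 CPM and fell by 1.39 (adjusted p = 0.00226). Gas6, the ligand of the TAM receptors, fell by 2.79 and Igfbp4, which binds insulin-like growth factors, by 1.63. Each of these 5 was called without each mouse, and all but Bmp2 (-1.04, adjusted p = 0.0651) with the 1% endothelial cut. Stellate cells are a major source of Hgf, and the summed stellate and fibroblast markers stood at 812, 681, 751 and 814 unscaled CPM in members. Their part in the Hgf result was not tested.

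The other angiocrine calls depended on single mice. Pdgfa was lost without corn oil mouse 2 (adjusted p = 0.141) or CCl4 mouse 1 (0.118), Pdgfd without CCl4 mouse 1 (0.289), Igfbp7 without CCl4 mouse 2 (0.0519) and Sema6a without any mouse but corn oil mouse 1 (0.0624 to 0.107). Ch25h, named above, is the fourth gene that rose.

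Among vascular receptors 2 of 26 rose and 4 fell, with a median of -0.31. Ednrb rose as described, and Il1r1, the interleukin-1 receptor, rose by 1.29 but was called only with corn oil mouse 2 and both CCl4 mice present (adjusted p = 0.0850, 0.131 and 0.0615 without each). Nrp1, a co-receptor for VEGF and semaphorins, stood at 1042, 1040, 343 and 278 CPM and fell by 1.72 (adjusted p = 5.41e-04), also with the 1% endothelial cut (-1.63, adjusted p = 0.00181). Adgrf5, an adhesion receptor, fell by 0.94 but was not called with that cut (adjusted p = 0.0519). Flt1, VEGF receptor 1, fell by 0.91 and Eng, a BMP co-receptor, by 0.79, and without CCl4 mouse 2 neither was called (0.0964 and 0.129), nor was Eng without corn oil mouse 1 (0.0544).

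In the Wnt list, which leaves out Wnt2 itself, 0 of 14 genes rose and 3 fell, with a median of -0.52. The 3 were Dkk3, a secreted Wnt modulator found at the central end (128, 124, 15.1 and 26.9 CPM; -2.68, adjusted p = 0.00394), the receptor Lrp6 (-1.27) and the feedback inhibitor Nkd1 (-1.50). None of the 3 was called without CCl4 mouse 1 (adjusted p = 0.0545, 0.154 and 0.293). Lrp6 was also lost without corn oil mouse 2 (0.0729) or CCl4 mouse 2 (0.0583), and Nkd1 without CCl4 mouse 2 (0.0530). Of 17 Notch pathway genes only Lfng, a glycosyltransferase that modifies Notch, was called (-1.99, adjusted p = 0.00324), and it was not with the 1% endothelial cut (adjusted p = 0.0930).

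Of 36 endothelial transcription factors, 2 rose and 2 fell (median -0.08), beside 3.61% and 2.88% over all tested genes. Myc, a growth regulator, stood at 20.4, 13.1, 222 and 89.8 CPM and rose by 3.26 (adjusted p = 0.00100), and Hif1a, the oxygen-sensing factor, at 64.2, 56.8, 217 and 225 and rose by 1.85. Maf, a regulator of sinusoidal identity, fell by 0.91 and Epas1, the HIF-2 alpha gene, by 1.41, the latter with adjusted p = 0.0514 without CCl4 mouse 1. Hif1a (0.85, adjusted p = 0.643) and Maf (-0.72, 0.302) were not called with the 1% endothelial cut. Gata4, a transcription factor needed for sinusoidal differentiation, stood at a change of 0.22 (adjusted p = 0.711).

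Of genes of leukocyte recruitment 7 of 17 rose and 3 fell, with a median of 0.55. Selp, P-selectin, stored in endothelial granules and used to capture leukocytes, stood at 26.5, 20.4, 197 and 198 CPM and rose by 3.04 (adjusted p = 2.13e-04), and Jam2, a junctional adhesion molecule, by 1.47. Sele, E-selectin, rose by 4.14, from 5.10 and 7.28 to 167 and 26.9 CPM. Selp was not called with the 1% endothelial cut, where 3 and 1 UMIs remained in the CCl4 mice (0.70, adjusted p = 0.868). Cxcl9, an interferon-induced chemokine, stood at 99.9, 134, 434 and 1096 CPM, but 94.3% of its UMIs in CCl4 mouse 2 came from 1 cell, and after thinning it was not called (1.77, adjusted p = 0.0847). Ackr3, a chemokine scavenger, and Lgals9, a galectin, were lost without CCl4 mouse 1 (adjusted p = 0.141 and 0.0726).

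On the falling side Ackr4, a scavenger of CCL19 and CCL21, fell by 3.17 and Cd47, the signal against phagocytosis, by 1.00, though neither was called with the 1% endothelial cut (-2.57, adjusted p = 0.126, and -1.09, 0.0587), nor Ackr4 with limma (0.120). The third, Cxcl16, a chemokine (-1.35), was lost without either CCl4 mouse (0.0794 and 0.126). Summed monocyte and macrophage markers stood at 88.1 and 66.2 unscaled CPM in corn oil members and 163 and 170 in CCl4 members, with S100a8 and S100a9 at 0 in all 4. Kupffer markers stood at 389, 384, 501 and 369, and 4 of them were tested. C1qb, a complement subunit, rose by 1.97 (adjusted p = 0.00612), but not without CCl4 mouse 1 (1.14, adjusted p = 0.260). Slc40a1, the iron exporter, fell by 1.15 (adjusted p = 0.0261), a call lost without either CCl4 mouse (0.120 and 0.0882). C1qa (1.74, adjusted p = 0.119) and C1qc (0.25, 0.843) were not called, and neither C1qb nor Slc40a1 was with the 1% endothelial cut (0.228 and 0.256). Their part in these results was not tested.

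Of 13 clock genes 0 rose and 2 fell, with a median of -0.79: Hlf, and Per2, a core clock repressor, at 80.5, 96.1, 5.05 and 0 CPM (-4.66, adjusted p = 0.00285). Both were called without each mouse and with the 1% endothelial cut. Nr1d1, the REV-ERB alpha gene, stood at 484, 117, 106 and 117 CPM, and Dbp at 211, 122, 55.5 and 135, neither called. After thinning 8 of 16 fell, beside 436 of 8567 over all tested genes. The labels do not give the hour at which livers were taken.

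Immediate early and heat shock genes, which also respond to tissue digestion, had 4 of 34 genes higher and 9 lower in the test, with a median of -0.48. Fos stood at 6556, 7270, 4043 and 2236 CPM and fell by 1.13, Jun by 1.27, Junb by 1.59 and Btg2 by 2.15, all in every left-out fit. Fosl2 rose by 2.29, and the heat shock genes Hspa1a (2.13), Hspa1b (2.60) and Hsp90aa1 (1.35) rose but were lost without CCl4 mouse 1 (adjusted p = 0.143, 0.863 and 0.357), as was Hsp90aa1 without corn oil mouse 2 (0.0536). With the 1% endothelial cut 1 of 33 rose, Fosl2, and none fell, beside 38 and 44 of 5769 over all tested genes.

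Cell cycle genes showed 0 of 12 higher and 4 lower (Ccna2, Top2a, Stmn1 and Ccnd1), with a median of -1.47, or -1.43 with genes at 0 put at their bound. None of the 4 was called without CCl4 mouse 1. In the protein folding list 4 of 24 rose (Creld2, Hyou1, Pdia4 and Pdia6), with a median of 0.40, and again none was called without CCl4 mouse 1 (adjusted p = 0.936, 0.385, 0.379 and 0.166). Of 32 interferon response genes only Ifi203 was called (-1.11, and 0.150 without CCl4 mouse 1). Nos3, the endothelial nitric oxide synthase, rose by 1.29 as the only call among 8 genes of vascular tone, but its adjusted p was 0.0761 without corn oil mouse 2 and 0.0668 without CCl4 mouse 2.

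Among coagulation genes 3 of 12 rose and 1 fell: Adamts4, Plaur, the urokinase receptor (2.72, adjusted p = 0.00100), and Entpd1, which degrades ATP, rose, and Cd59a, a complement inhibitor, fell by 1.06 (not called with the 1% endothelial cut, adjusted p = 0.197). Entpd1 was lost without corn oil mouse 1, corn oil mouse 2 or CCl4 mouse 1 (adjusted p = 0.246, 0.320 and 0.599). Of 19 genes of xenobiotic and oxidative defence, Gpx1, a glutathione peroxidase, rose by 1.36 and Gstm1, a glutathione transferase, fell by 2.00. Gstm1 was not called after thinning (-0.73, adjusted p = 0.157) or with the 1% endothelial cut (0.382), and Gpx1 was not with that cut (0.74, adjusted p = 0.597). No MHC class II gene of 10 passed the filter on low counts. Lymphocyte markers stood at 54.4, 60.5, 5.11 and 0 unscaled CPM, hepatocyte markers at 1301, 956, 787 and 1201, and the 16 markers of venous, arterial and lymphatic endothelium at 3045, 2846, 2907 and 3349, with Gja5, Bmx, Hey2, Mmrn1, Pdpn, Ccl21a and Rgcc at 0 in all 4 sums of members. Of 7 tested, Selp and Fabp4, a fatty acid carrier (0.73, adjusted p = 0.0395), rose, while Bgn, a matrix proteoglycan (-1.59, adjusted p = 0.00239), and Gja4, a connexin (-0.92, adjusted p = 0.0333), fell. Bgn, which is also on the stellate and fibroblast list, was called without each mouse but not with the 1% endothelial cut (0.0600). The part of these cells in the other results was not tested.

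Zone genes that the rule did not read were described as 2 lists, 1 for each end of the sinusoid. Of 10 tested periportal genes, Lyve1, Cd36 and Efnb1, an ephrin ligand (73.4, 65.5, 167 and 198 CPM; 1.36, adjusted p = 0.0156), rose, while Clec4g and Gja4 (684, 559, 293 and 377 CPM) fell, with a median of 0.92 beside -0.02 over all genes. Efnb1 was lost without CCl4 mouse 2 (adjusted p = 0.0619), and Gja4 without corn oil mouse 1 or CCl4 mouse 1 (0.0859 and 0.192) and after thinning (0.0600). Neither was called with the 1% endothelial cut (0.252 and 0.0524), where 2 of 8 rose, 1 fell and the median was 0.13. After thinning 5 of 11 rose and 1 fell, beside 494 and 436 of 8567 over all tested genes.

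Of 11 tested pericentral genes outside the rule, Selp, Fabp4 and Rab3b, a vesicle GTPase (104, 64.1, 167 and 278 CPM; 1.32, adjusted p = 0.0374), rose and Dkk3 fell, with a median of 0.40. Fabp4 stood at 1025, 878, 1550 and 1617 CPM. It was lost without each mouse in turn (adjusted p = 0.0506 to 0.316), and Rab3b without corn oil mouse 2 or CCl4 mouse 2 (0.103 and 0.219). With the cut at 1% none of the 11 was called. The zones kept their order for some of these genes and not for others, given as a description. Of the periportal list, Cd36, Efnb1, Clec4g, Itga9, Il1a and Hey1 were lower in members than in periportal-type cells in all 4 libraries. Gja4 (664, 541, 296 and 397 against 263, 376, 161 and 294 unscaled CPM) and Dll1 were higher in members in all 4. Cxcl12 was higher in 3 libraries and Sox17 in 1. Jag1 was lower in the corn oil libraries and higher in the CCl4 libraries, on 6 and 4 UMIs there. Lyve1 was lower in the corn oil libraries (662 and 724 against 1061 and 1005 unscaled CPM) and higher in the CCl4 libraries (3341 and 3481 against 2397 and 1982). Dkk3 was far higher in members in the corn oil libraries (125 and 120 against 27.5 and 21.7) but not in CCl4 mouse 1 (15.3 against 29.3).

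Whether a change was larger in pericentral-type than in periportal-type cells was tested as an interaction within mice, with the mouse as a block. Of 10251 genes, 163 (1.59%) changed more upward and 215 (2.1%) more downward in pericentral-type cells, 3.69% in all, with a median difference of -0.11. In periportal-type cells alone 3.88% of genes were called, 2.07% higher and 1.81% lower. edgeR's default form gave infinite prior degrees of freedom here, so its p-values rest on a spread shared over genes and not on each gene's own. Its newer form, added after seeing the data, called 63 and 69, all among the 378, the fit without the mouse block 10 and 7, and the 1% endothelial cut 8 and 30. Adjusted p-values below are from the newer form unless named otherwise.

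Ednrb had the largest stable difference. In periportal-type cells it stood at 355 and 99.1 CPM in the corn oil mice and 365 and 531 in the CCl4 mice, with no call (0.98, adjusted p = 0.321). The difference was 5.85 (SE 0.255; adjusted p = 2.02e-09), and 4.53 with the 1% endothelial cut (default form, adjusted p = 5.46e-22). The order of the zones turned over: the pericentral value was below the periportal one in both corn oil mice and above it in both CCl4 mice.

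Cd34 and Ly6a stood above the pericentral level in periportal-type cells of both corn oil mice. Cd34 stood at 92.6, 65.8, 134 and 148 CPM in periportal-type cells, where it was called higher as well (0.83, adjusted p = 0.0495), and the difference was 4.61 (adjusted p = 5.09e-04). Ly6a stood at 1206, 1108, 1025 and 1206 CPM in periportal-type cells, a change of -0.06 there (adjusted p = 0.900), and the difference was 2.48 (adjusted p = 2.05e-06). It had a UMI in 31.4%, 25.7%, 81.3% and 88.2% of members and in 78.0%, 70.2%, 76.5% and 85.9% of periportal-type cells, against 33.7% to 51.4% of Kupffer cells. After thinning the members' shares were 20.7%, 23.2%, 75.0% and 82.4%. Vim, whose pericentral call rested on single mice as given above, differed between zones by 1.40 (adjusted p = 2.44e-04), with a change of -0.58 in periportal-type cells.

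**Figure D4:**
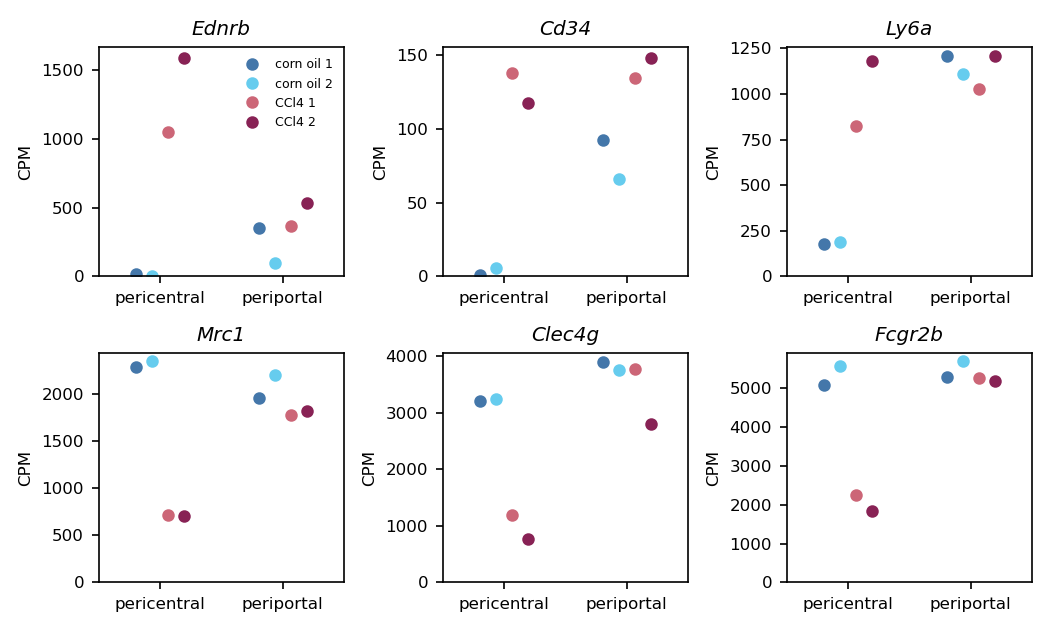
CPM per mouse of 6 genes in pericentral-type and periportal-type cells, 1 point per mouse, each panel from 0. Ednrb, Cd34 and Ly6a are low in pericentral-type cells of both corn oil mice, and Mrc1, Clec4g and Fcgr2b are low in pericentral-type cells of both CCl4 mice.

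Among the 18 scavenger and identity genes, 2 differed upward and 12 downward (13 by the default form), with a median difference of -0.90. Mrc1 stood at a change of -0.22 in periportal-type cells and differed by -1.50 (adjusted p = 8.46e-05), Clec4g at -0.22 with a difference of -1.50 (8.46e-05), Fcgr2b at -0.08 with a difference of -1.30 (1.39e-04) and Cyp4b1 at -0.03 with a difference of -1.68 (5.90e-04). Stab1 differed by -0.99, F8 by -1.11 and Dnase1l3 by -1.12, the last beside a periportal change of -0.87. With the 1% endothelial cut the differences of Mrc1, Clec4g, Fcgr2b and Cyp4b1 were called and those of Stab1 (default form, adjusted p = 0.0660), F8 (0.0741) and Dnase1l3 (0.0671) were not.

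Lyve1 rose in both zones, by 1.02 in periportal-type cells, with a difference of 1.11 (adjusted p = 8.69e-04) that shrank to 0.10 with the 1% endothelial cut (default form, adjusted p = 0.937). Of the zone lists outside the rule, 2 of 10 periportal genes differed upward and 1 downward (3 and 1 by the default form; median difference 0.68), and 0 and 3 of 11 pericentral genes (median -0.19). In the capillary and basement membrane list 6 of 27 differed upward and 0 downward (7 and 0 by the default form). Of 24 angiocrine genes 0 differed upward and 3 downward (4 and 5 by the default form). The difference of Hgf was 0.30 with the 1% endothelial cut (default form, adjusted p = 0.880) and 0.88 after thinning (default form, adjusted p = 0.00145). Other named differences were Dkk3 (-2.88, adjusted p = 0.00673), Igfbp4 (-1.41, 0.00154), Bmp2 (-1.08, 0.00670), Hif1a (1.46, 0.0126) and Nos3 (1.25, 0.0129). By the default form with the 1% endothelial cut, Dkk3 (adjusted p = 0.0498) and Igfbp4 (0.0407) were called, and Bmp2 (-0.87, adjusted p = 0.123), Hif1a (0.49, 0.869) and Nos3 (0.42, 0.851) were not. In the default form, the differences of Hif1a and Nos3 were also lost without corn oil mouse 2. Several large changes had no call for a difference: Selp rose by 3.12 in periportal-type cells with a difference of -0.18 (adjusted p = 0.917), Myc by 3.31 with a difference of -0.16 (0.918), and the differences of Creld2, Hyou1, Pdia4 and Pdia6 lay between -0.46 and 0.07. Neither Hlf (adjusted p = 0.635) nor Per2 (0.0764) was called.

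**Figure D5:**
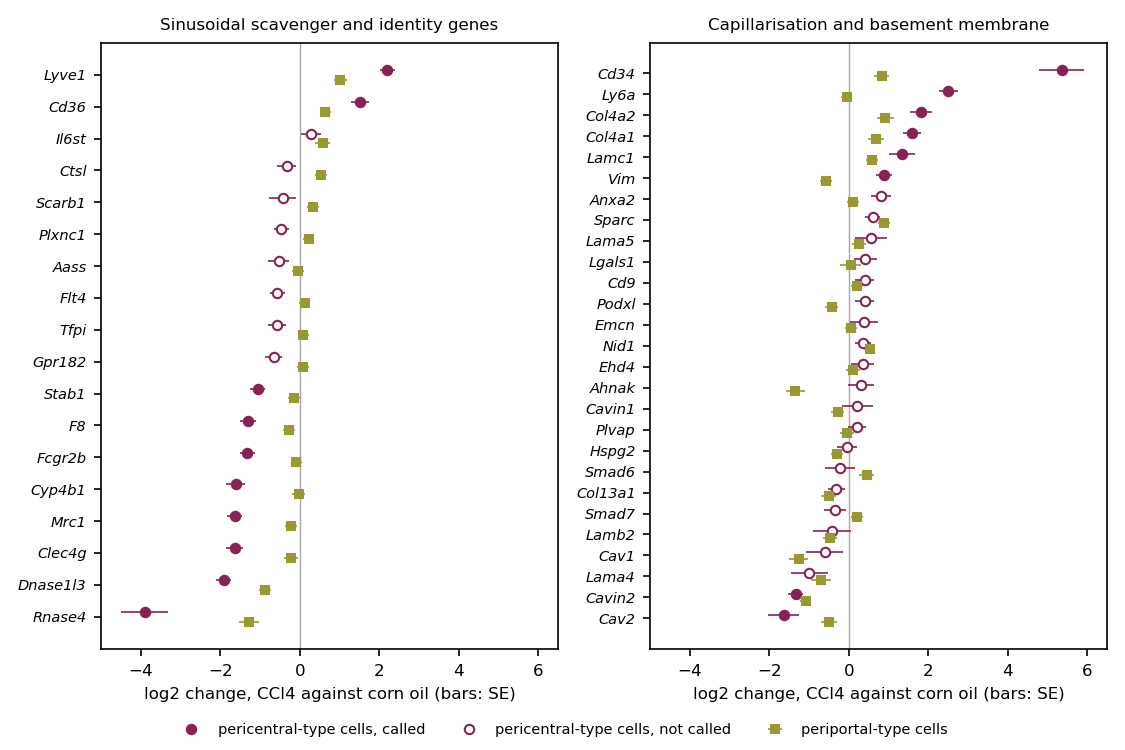
Log2 change from corn oil to CCl4, with its SE, in pericentral-type cells (circles, filled where called) and periportal-type cells (squares), for the tested genes of 2 lists. In the left panel most circles lie left of their squares, as for Mrc1 at -1.64 against -0.22, and in the right panel Cd34 and Ly6a have the largest gaps to the right.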

How the data were processed

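Nonparenchymal liver cells of 4 mice, 2 per group, were analysed. The deposited tables hold whole-number counts of molecules (UMIs) per cell and gene, made by the authors with the BD WTA Rhapsody Analysis Pipeline 1.9.1 on GRCm38 with GENCODE vM19, per the file headers. No aligner is given in these sources. Genes absent from 1 table were counted as 0 there (25149 genes in all). The members, gene lists and tests were chosen with earlier results of these data known. Member UMIs were summed per library and tested with edgeR 4.0.16 in R 4.3.3 (glmQLFit, default form, TMM, filterByExpr, Benjamini-Hochberg over all tested genes). The 22 genes the rule reads stayed in library sizes and were not tested. The genes named as largest changes were, in each direction, the 12 called genes with the largest log2 change, no overlap between groups, a mean of at least 20 CPM in the higher group and at least 10% of the level in each of 3 reference populations (Kupffer cells, stellate cells and other leukocytes); for the zone difference, 6 per direction under the same CPM and 10% limits. Genes on the fixed lists could also be named. No doublet caller was used in the main analysis; an alternative left out the 5% of cells with the highest simulated-doublet scores. Other alternatives were limma 3.58.1, DESeq2 1.42.0, RLE scaling, no filter, other limits of the rule, thinning, a replicate block and each mouse left out. The fitting code was tested on simulated data. Coordinates are from GENCODE vM21 (GRCm38). Cells were read in Python 3.11.15 (pandas 2.3.3, numpy 2.4.6), doublet scores used scikit-learn 1.9.0, tests scipy 1.17.1 and figures matplotlib 3.10.9.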

Additional observations from a re-analysis of the deposited data

Results flagged for a closer look

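In 12 genes, chosen by size, the effect of CCl4 differed between pericentral-type and periportal-type cells in edgeR's default interaction test (log2 change in pericentral-type minus that in periportal-type cells). Upward differences were 5.94 for Pi16, a secreted protein of fibroblast-like cells, 5.85 for Ednrb, 5.19 for Nepro, 4.88 for Slc1a5, 4.61 for Cd34 and 4.22 for Trim16. Pi16, Nepro and Trim16 rested on 10, 7 and 9 UMIs in the CCl4 members. Downward differences were -9.41 for Loxl3, -9.23 for Zfp512, -9.21 for Esrrb, -8.84 for F830016B08Rik, -8.79 for Ecm2 and -8.77 for Copz2, and all 6 had no UMI in CCl4 members, so these fitted values are no measure of size. By the newer form of the test Ednrb, Cd34, Slc1a5 (adjusted p = 8.82e-04) and Pi16 (0.0476) were called and the other 8 were not. Without corn oil mouse 1 the default form still called Ednrb, Cd34 and Loxl3, while Slc1a5 had an adjusted p of 0.126, and without corn oil mouse 2 it called Ednrb, Cd34 and Slc1a5. With the 1% endothelial cut Ednrb and Cd34 were called, Cd34 on 8 UMIs in CCl4 mouse 1 and none in mouse 2, Slc1a5 had an adjusted p of 0.731, and Pi16 was not among the tested genes. When cells were gated after thinning, the downward differences became -1.22 for Loxl3 (adjusted p = 0.0552), -0.43 for Zfp512 (0.570), -1.55 for Esrrb (0.0426), -0.31 for F830016B08Rik (0.801), -0.94 for Ecm2 (0.175) and -0.20 for Copz2 (0.893), so that only Esrrb of these 6 was called. Upward, Pi16 (4.46), Ednrb (6.08), Slc1a5 (2.05) and Cd34 (3.95) were called, and Nepro (1.70, adjusted p = 0.399) and Trim16 (1.82, 0.0738) were not.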

How the results depend on the processing

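With 49 CCl4 members, depth limits low genes, and a gene without a UMI in them is given by a bound only. Counts of called genes in members (224 higher, 179 lower) were 113 and 79 with DESeq2, 128 and 112 with Thbd left out of the gate, 494 and 436 when cells were gated after thinning, and 38 and 44 with the 1% endothelial cut; without the low-count filter 343 were lower. Leaving out each mouse gave 118 to 218 higher and 122 to 223 lower. Zone differences (163 and 215) were 49 and 47 with DESeq2, 10 and 7 without the mouse block, 63 and 69 with the newer form, 56 and 94 with Thbd left out, 8 and 30 with the 1% endothelial cut, and 308 upward after thinning; leaving out each mouse gave 28 to 131 and 53 to 200. The cause was not tested. The replicate number as a block gave 279 higher and 235 lower, called 402 of the 403 genes and, in all sinusoidal cells, changed no call of Wnt2, Kit, Cdh13 or Thbd but called Ntn4 (0.39) and Msr1 (0.48); the numbers share only a name, since no label pairs them (correlation of deviations 0.0988 over 3605 genes). The share difference of -3.52 percentage points ranged from -3.97 to -3.06 without each mouse. In all sinusoidal cells Cdh13 ranged from -2.74 to -1.50 and Thbd from -0.24 to 0.64 without each mouse, Dll4 from -0.022 to 0.29 (negative without corn oil mouse 1) and Adgrg6 from -0.16 to 0.88 (negative without CCl4 mouse 2). With the marker left out of the gate Wnt2 ranged from -1.10 to -0.87 and Thbd from 1.07 to 1.75. With the 1% endothelial cut Hspa1a turned to -0.70, and its zone difference to -1.61, those of Ch25h, Ccl2 and Pdgfa to -1.43, -8.99 and -0.61; with Thbd left out of the gate those of Pdgfa and Cxcl9 turned to -0.39 and -0.094. Of 106 called genes on the lists or among the largest changes, 21 were called in all 17 alternatives.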
